A study of Homo sapiens with 12 samples.

Results

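The genes described here encode the aminoacyl-tRNA synthetases of human cells and 2 scaffold proteins that hold several of them together. They were measured by RNA sequencing in SW1783, an established human astrocytoma line. The 37 members were chosen by name and function, but with earlier results of these data known. All 37 were found by symbol among the 60675 gene identifiers of the count table. Of these, 21 act in the cytosol, counting the scaffolds AIMP1 and AIMP2, and 16 are mitochondrial enzymes whose symbols end in 2. The list does not hold every human synthetase. The cells received for 24 h a water extract of Aconitum carmichaeli Debeaux (ACD) at a low (20 µg/mL), medium (100 µg/mL) or high (500 µg/mL) dose, or a vehicle with 2% DMSO. Each of the 4 groups had 3 libraries of the same line. Titles and treatment labels name ACD, while the protocol text of the same samples speaks of Poria cocos, and the titles were followed here. Per the methods, the extract stock was made up in the solvent of the vehicle and diluted serially for the lower doses. The diluent is not given in the sources used here. The labels do not say whether the libraries of a group came from separate cultures, so p-values measure the spread between these libraries, which may be technical.

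An aminoacyl-tRNA synthetase joins one amino acid to the transfer RNAs that carry it, which is the step at which the genetic code is read into protein. Human cells use separate enzymes in the cytosol and in the mitochondrion for most amino acids, all encoded in the nucleus. Several cytosolic enzymes sit in a multi-synthetase complex together with scaffold proteins, while the others are free or form smaller assemblies. Many cytosolic synthetase genes are known targets of ATF4, the transcription factor of the amino acid response, which is translated when amino acids run short or proteins misfold. ATF4 binds with a C/EBP partner to a composite element in promoters and introns.

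The libraries held between 18863863 and 24200576 counts. Cytosolic members took 0.339% to 0.342% of all counts in the vehicle libraries and 0.573% to 0.583% at the high dose, and mitochondrial members took 0.0565% to 0.0586% and 0.0521% to 0.0524%. The lowest count of any member in any library was 123. Of the 11 astrocyte markers, GFAP, S100B, SLC1A2, ALDH1L1 and FABP7 were at or near 0 and AQP4 was at 0 in every library, while VIM, GJA1, SOX9, SLC1A3 and NES were expressed. GFAP, for example, had 1.02, 5.26 and 2.08 normalised counts in the vehicle libraries. VIM, an intermediate filament shared with other cell types, had 88412 ± 4033 (SD, n = 3) in the same group, and the gap junction gene GJA1 had 4914 ± 159. Called lower in the high dose group were 2 of the 11, the glutamate transporter SLC1A3, from 671, 685 and 714 in vehicle to 127, 122 and 130.0, and NES, from 212, 227 and 204 to 60.2, 73 and 60.8. The 19 markers of neurons, leukocytes, epithelium and endothelium that were fixed for this check summed to 12172 to 12529 normalised counts in the vehicle libraries and 8115 to 8425 at the high dose. Of these 19, 5 were called lower and 0 higher at the high dose by DESeq2, where 7 had an unadjusted p under 0.05. By adjusted p alone 5 were lower (background 22.6%) and 2 higher (background 23.9%). A mean normalised count of at least 10 was reached by 8 of the 19. KRT18 had 4559, 5106 and 4473 rounded counts in vehicle and 1422, 1744 and 1613 at the high dose. CD68 had 2753, 3198 and 2852 and then 3362, 4263 and 4413. Over all 19453 genes tested at that dose, 1862 were called lower and 1684 higher. The part of these markers in the results was not tested. In bulk RNA, fewer cells of a type and less RNA per cell cannot be told apart.

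At the high dose, 12 of the 37 genes were called higher than vehicle and 0 were called lower. A gene was called where its Benjamini-Hochberg adjusted p in DESeq2 was under 0.05 and its fold change was over 1.5. All 12 were among the 21 members grouped as cytosolic, and 0 of the 16 mitochondrial enzymes with symbols ending in 2 were called. Those 16 include no enzyme for glycine, the amino acid of GARS1. The grouping therefore does not tell in which compartment the product of GARS1 acts. Of all 19453 genes tested, 8.66% were called higher and 18.2% were called in either direction. The median log2 fold change was 0.86 over the 21 cytosolic members, 0.08 over the 16 mitochondrial members and -0.01 over all genes tested. The unadjusted p was under 0.05 for 7 of the mitochondrial genes, and the edgeR quasi-likelihood test also called 0 of them.

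**Figure D1:**
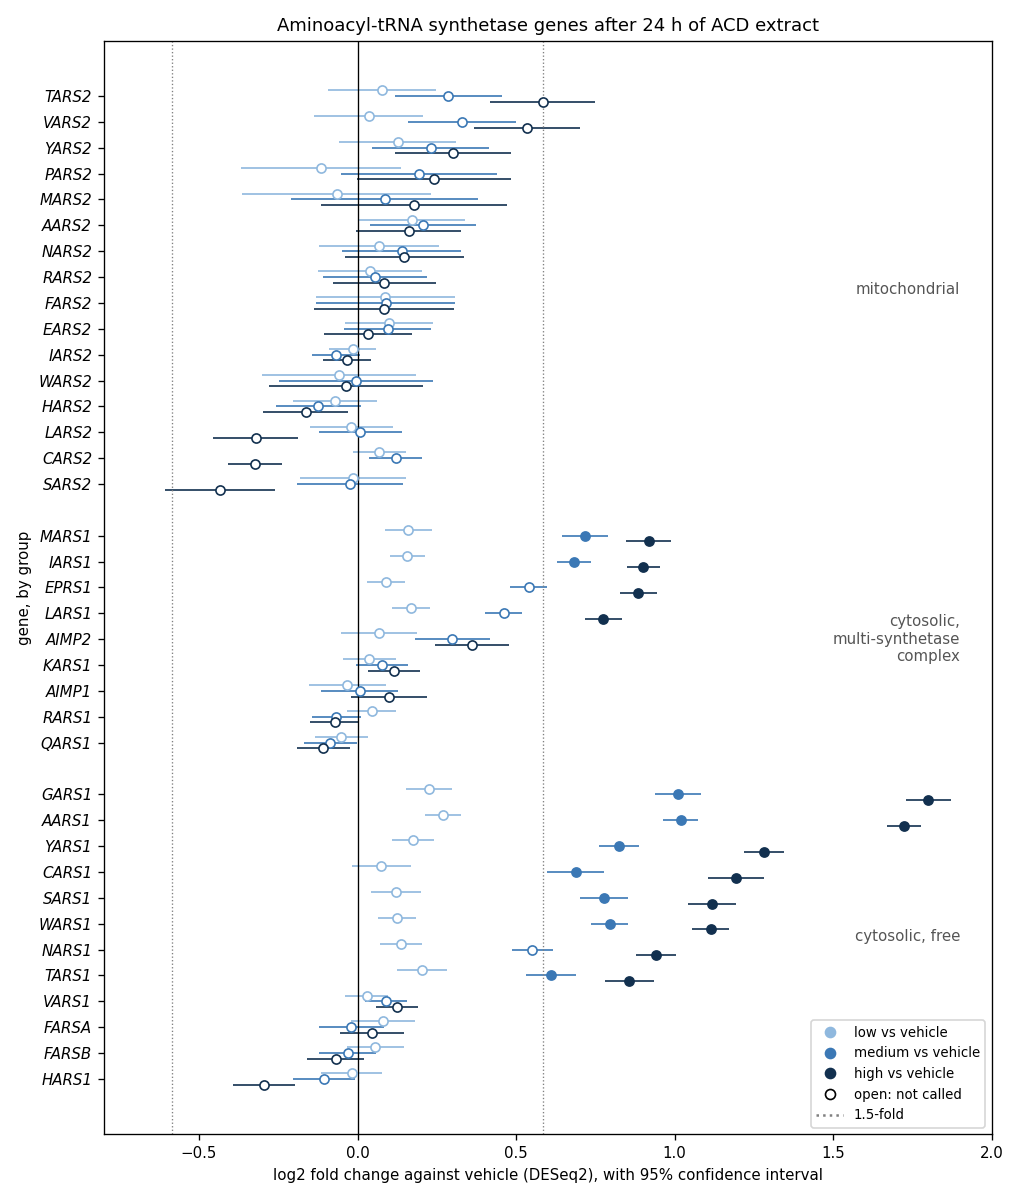
Log2 fold change against vehicle (x axis) of the 37 genes (y axis, grouped as mitochondrial, complex and free cytosolic) at the low, medium and high dose, with bars for the 95% confidence interval. Filled points were called, and filled points of the high dose lie between 0.78 and 1.80, all in the cytosolic groups.

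GARS1, the glycyl-tRNA synthetase, had the largest change. It had 4087, 4198 and 3983 in the vehicle libraries, 4598, 4819 and 4941 at the low dose, 7874, 8381 and 8458 at the medium dose and 13898, 14039 and 14778 at the high dose as normalised counts, that is, counts divided by each library's DESeq2 size factor. Each dose group lay wholly above the one before it. The high dose mean was 3.48 times that of vehicle, a log2 fold change of 1.80 (SE 0.036). AARS1, the alanyl-tRNA synthetase, followed with 3759.6, 3910.0 and 3779 in the vehicle libraries, 4501, 4627 and 4689 at the low dose, 7651, 7693 and 7875 at the medium dose and 12558, 12615 and 12639 at the high dose. Its 4 groups did not overlap either, and at 500 µg/mL it differed from vehicle by 1.72 (SE 0.027) on the log2 scale. The adjusted p of GARS1, AARS1 and YARS1 at the high dose was too small for the software to represent.

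The other free cytosolic synthetases that were called fell between log2 fold changes of 0.86 and 1.28. YARS1, for tyrosine, had 3159, 3201 and 3249 in the vehicle libraries, 3488, 3738 and 3631 at the low dose, 5578, 5766 and 5671 at the medium dose and 7717, 7705 and 7943 at the high dose. It rose at the high dose by 1.28 (SE 0.032), and no 2 of its groups overlapped. CARS1, for cysteine, had 1291, 1238 and 1202 in the vehicle libraries, 1329, 1279 and 1323 at the low dose, 2022, 2027 and 1962 at the medium dose and 2830.5, 2824 and 2876 at the high dose. The low dose libraries of CARS1 overlapped those of vehicle, while the medium and high dose libraries lay above both, with a high dose log2 fold change of 1.19 (SE 0.044) and an adjusted p of 1.72e-156 in DESeq2. CARS1 was the least abundant of the 12 in the vehicle group, both as counts and per kilobase.

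SARS1, which charges serine, had 2475, 2554 and 2631 in the vehicle libraries, 2669, 2755 and 2912 at the low dose, 4291, 4351 and 4470.3 at the medium dose and 5394, 5678 and 5547 at the high dose. All 3 dose groups lay above vehicle, and at 500 µg/mL SARS1 had a log2 fold change of 1.12 (SE 0.038). WARS1, which charges tryptophan and is also known as an interferon-induced gene, had 4928, 4985 and 4976 in the vehicle libraries, 5261, 5480.5 and 5499 at the low dose, 8547, 8497 and 8786 at the medium dose and 10653, 10456 and 11096 at the high dose. WARS1 changed by 1.11 (SE 0.03) at the high dose, within the error of the change of SARS1. Opposite-strand genes overlap 10.6% of the exon bases of WARS1.

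NARS1, for asparagine, had 3309.8, 3276 and 3286 in the vehicle libraries, 3556, 3532 and 3773 at the low dose, 4860.2, 4727 and 4881 at the medium dose and 6284, 6388 and 6278 at the high dose, a high dose log2 fold change of 0.94 (SE 0.032). Its libraries of each dose lay above those of the dose before. TARS1, for threonine, had 4206, 4076 and 4227 in the vehicle libraries, 4455, 4805 and 5144 at the low dose, 6287, 6247 and 6551 at the medium dose and 7548, 7493 and 7616 at the high dose. The low dose libraries of TARS1 were the most spread of the 12 genes, with an SD of 344, and still lay above all 3 vehicle libraries. At the high dose TARS1 had changed by 0.86 (SE 0.04) on the log2 scale.

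The free cytosolic members that were not called were VARS1, HARS1 and both subunits of the phenylalanine enzyme, FARSA and FARSB. FARSA, the alpha subunit, had 1607, 1658 and 1638 in the vehicle libraries and 1717, 1685 and 1659 at the high dose. FARSB, the beta subunit, had 1863, 1874 and 1841 and 1796, 1773 and 1752. The log2 fold changes were 0.04 (95% confidence interval -0.06 to 0.15) and -0.07 (-0.16 to 0.02), so a change of 1.5-fold lay outside both intervals. VARS1, for valine, had 3792, 3860.1 and 3946 in vehicle and 4206, 4151 and 4286 at the high dose, a log2 fold change of 0.12 with adjusted p 8.60e-04 in DESeq2. HARS1, for histidine, was the single free cytosolic enzyme that was lower by adjusted p, with 2009, 2085 and 2122 in vehicle and 1675, 1669 and 1723 at the high dose. Its log2 fold change was -0.30 (SE 0.05), with adjusted p 2.08e-08 in DESeq2. In all, 8 of the 12 free cytosolic genes were called.

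Of the 9 members of the multi-synthetase complex, 4 were called higher at the high dose. These were the enzymes for glutamate and proline (EPRS1, which carries both activities in one protein), isoleucine (IARS1), leucine (LARS1) and methionine (MARS1). The other 5 were QARS1, RARS1, KARS1 and the scaffolds AIMP1 and AIMP2.

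MARS1 had 2759.5, 2834 and 2726 in the vehicle libraries, 3027, 3076 and 3198 at the low dose, 4362, 4718 and 4600.3 at the medium dose and 5329, 5210.1 and 5187 at the high dose, the largest high dose change in the complex at 0.92 (SE 0.037). Opposite-strand genes overlap 12.4% of its exon bases. IARS1 had 8484, 8051 and 7923 in the vehicle libraries, 9029, 9188 and 9061 at the low dose, 12857, 13188 and 13186 at the medium dose and 14913, 15378 and 15379.6 at the high dose. The change of IARS1 at the high dose was 0.90 (SE 0.027), and it held the most normalised counts of all 37 genes in each group. EPRS1 had 4686, 4503 and 4408 in the vehicle libraries, 4782, 4765 and 4933 at the low dose, 6502, 6696 and 6559 at the medium dose and 8444, 8309 and 8373 at the high dose, with a high dose change of 0.89 (SE 0.029). LARS1 had 5255, 5272 and 5017 in the vehicle libraries, 5621, 5981 and 5884 at the low dose, 7058, 7171 and 7177 at the medium dose and 8891, 8945 and 8774 at the high dose. At 0.78 (SE 0.03) it was the smallest change among the 12 called genes, with adjusted p 6.67e-149 in DESeq2.

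KARS1, which charges lysine for both the cytosol and the mitochondrion, had 3332, 3250.3 and 3323 in vehicle and 3702, 3332 and 3694 at the high dose. One high dose library of KARS1 lay within the vehicle range, and its log2 fold change was 0.11 with adjusted p 0.0164. RARS1, for arginine, had 3594, 3415 and 3541 and 3279.7, 3374 and 3372, with a log2 fold change of -0.07 and adjusted p 0.124. QARS1, for glutamine, was slightly lower, with 2725, 2675 and 2928 in vehicle, 2557, 2522 and 2644 at the high dose and a log2 fold change of -0.11 (adjusted p 0.0273). The scaffold AIMP1 had a log2 fold change of 0.10 (-0.02 to 0.22) and did not pass the test. AIMP2, whose exons are overlapped over 29.1% of their bases by opposite-strand genes, had 988, 926 and 1066 in vehicle and 1286, 1215 and 1323 at the high dose, a log2 fold change of 0.36 with adjusted p 8.72e-09. Scaling by total counts in place of size factors shifted the median of genes with a mean of at least 100 by -0.11 on the log2 scale at the high dose. With that scaling the high dose log2 fold changes of KARS1 and VARS1 became 0.00066 and 0.011 and no longer passed, while all 12 called genes were still called.

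Synthetases belong to class I or class II by the fold of their catalytic domain. At the high dose 6 of 9 cytosolic class I genes and 5 of 9 class II genes were called, with EPRS1, which holds a domain of each class, counted in neither. The amino acids whose cytosolic enzyme was not called were arginine, glutamine, histidine, lysine, phenylalanine and valine.

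**Figure D2:**
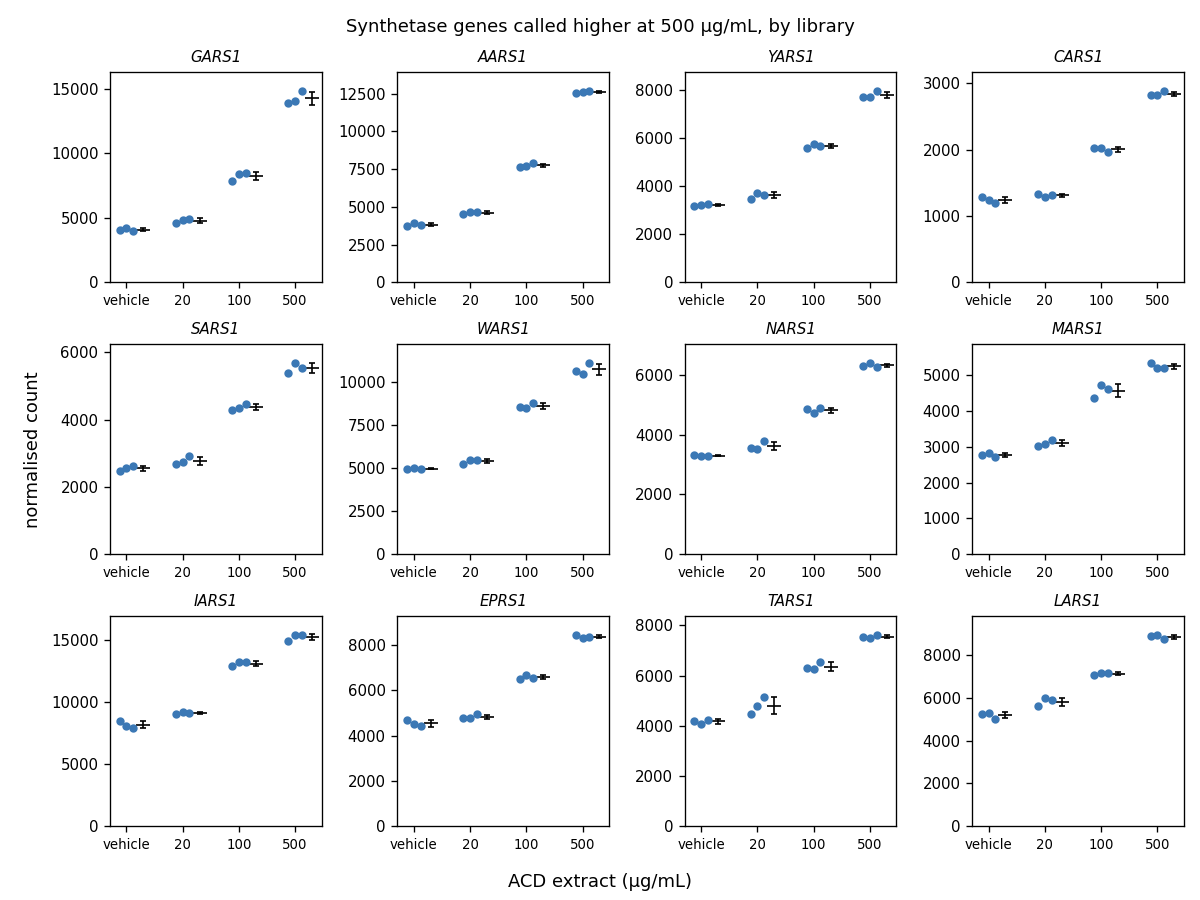
Normalised count (y axis, from 0) of the 12 genes called higher at the high dose, in each library (points) of the vehicle and of the 20, 100 and 500 µg/mL groups (x axis), with bars for mean ± SD of 3 libraries. In each panel the 3 high dose points lie above the medium dose points, which lie above the vehicle points.

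The medium dose gave 9 called genes, all higher and all among the 12 of the high dose, against 2.34% of genes tested that were called higher. AARS1 (1.02), GARS1 (1.01), YARS1 (0.82) and WARS1 (0.79) had the largest log2 fold changes. NARS1 (0.55), EPRS1 (0.54) and LARS1 (0.46) passed the adjusted p but not the fold. By adjusted p alone 19 members were higher at the medium dose, of a background of 15.1%, and 0 were lower, where 2 (HARS1 and QARS1) had an unadjusted p under 0.05 and a negative change. The edgeR test called 9. At the low dose 0 members were called, of 0.0967% of genes called higher, and edgeR also called 0. At that dose 12 members had an unadjusted p under 0.05, each with a positive change. By adjusted p alone 9 were higher, against 2.05% of genes tested. These were AARS1, GARS1, TARS1, YARS1, LARS1, MARS1, IARS1, NARS1 and WARS1, all among the 12, with log2 fold changes from 0.13 to 0.27. The 3 libraries of the low dose lay wholly above the 3 of vehicle for 14 of the 37 members, and for 11 of the 12, where 14.1% of genes tested did so. FARS2, MARS2, PARS2 and WARS2 received no adjusted p at the low dose because DESeq2 left genes of their level out of the adjustment.

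Between the high and the medium dose, AARS1 (0.70) and GARS1 (0.79) were called higher, of 4.58% of genes called higher. By adjusted p alone 14 members were higher (background 21.1%), namely the 12 with TARS2 and VARS2. In the same comparison 4 were lower (background 19.8%), namely HARS1, CARS2, LARS2 and SARS2. Between the medium and the low dose 6 genes were called higher (background 1.35%), AARS1, CARS1, GARS1, SARS1, WARS1 and YARS1. The log2 change at the medium dose was 56.2% of that at the high dose for GARS1, the lowest of the 12, and 78.2% for MARS1, the highest. Among the called complex members it was 59.5% for LARS1, 60.9% for EPRS1 and 75.7% for IARS1, and among the free enzymes WARS1 stood highest at 71.4%, so the ranges of both groups overlapped. These shares are descriptions, and the doses share the vehicle libraries. The order of the 12 by size was led by GARS1, AARS1 and YARS1 at the high dose and by AARS1, GARS1 and YARS1 at the medium dose. In the likelihood ratio test over the 4 groups, 16 of 21 cytosolic and 7 of 16 mitochondrial members differed, where 45.8% of genes tested did.

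Levels of different genes were compared as normalised counts per kilobase of the Ensembl canonical transcript. On that scale WARS1 was the highest in the vehicle group at 1881 ± 11.6 (SD, n = 3) and overlapped IARS1 at 1819 ± 65.5. GARS1 followed at 1678 ± 44.2, and KARS1 and RARS1 did not separate from it or from each other in that order. At the high dose GARS1 stood first at 5843 ± 194, above WARS1 at 4068 ± 124 and AARS1 at 3667 ± 12, with no overlap between these neighbours. CARS2 was the most abundant mitochondrial enzyme in the vehicle group at 1146 ± 23.0 (rank 10 of the 37) and MARS2 the least abundant at 51.6 ± 5.56. The summed level of the 19 cytosolic synthetase genes was 23012, 22937 and 22996 per kilobase in the vehicle libraries and 41886, 41896 and 42746 at the high dose. The 12 called genes went from 15351 ± 98.8 in vehicle to 34668 ± 404 at the high dose. The 9 cytosolic members that were not called summed to 8816 ± 167 and 8954 ± 180, which overlapped. Both sums group genes by their call in these same libraries, so their contrast is not separate from the calls. By adjusted p alone 3 of those 9 were higher at the high dose (background 23.9%) and 2 lower (background 22.6%). The 16 mitochondrial enzymes summed to 4245 ± 74.6 in vehicle and 4111 ± 12.4 at the high dose.

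The promoters of these genes were searched for TGATGNAA, the letters of the composite element that ATF4 binds with a C/EBP partner. RefSeq windows of 300 bases (GRCh38.p14), with 250 bases before and 50 after the annotated start, were available for 32 of the 37 members. LARS1, YARS1, VARS1, AARS2 and VARS2 are not in the table. Both strands were read, and an element on the opposite strand appears below as its reverse complement. A match was present for 7 of the 10 called genes that have a window and for 1 of the 22 other members. Of all 35116 windows, 3.62% held a match. Among genes with a window, 5.30% of those called higher at the high dose, 2.92% of those called lower and 2.65% of those tested and not called held one. These shares are descriptions without a test, and the letters were chosen with the results known. The stretches around each match are shown because most of the called genes with a window carry the same letters, with the matched bases in capitals.

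AARS1 (chr16:70289656-70289723, minus strand): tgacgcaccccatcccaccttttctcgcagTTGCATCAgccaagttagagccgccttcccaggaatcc
GARS1 (chr7:30594815-30594882, plus strand): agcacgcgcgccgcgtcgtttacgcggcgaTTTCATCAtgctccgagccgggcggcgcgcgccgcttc
CARS1 (chr11:3057394-3057455, minus strand): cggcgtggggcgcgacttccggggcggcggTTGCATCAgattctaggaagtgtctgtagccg
IARS1 (chr9:92293673-92293740, minus strand): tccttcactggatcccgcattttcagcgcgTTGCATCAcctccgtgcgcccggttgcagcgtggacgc
MARS1 (chr12:57488034-57488097, plus strand): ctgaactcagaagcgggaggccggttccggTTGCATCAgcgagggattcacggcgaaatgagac
NARS1 (chr18:57621807-57621852, minus strand): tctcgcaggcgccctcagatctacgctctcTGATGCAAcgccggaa
TARS1 (chr5:33440937-33440994, plus strand): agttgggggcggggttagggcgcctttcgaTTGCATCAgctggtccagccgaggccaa
YARS2 (chr12:32756057-32756124, minus strand): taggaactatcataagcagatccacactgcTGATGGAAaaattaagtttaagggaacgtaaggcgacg
ASNS (chr7:97872439-97872506, minus strand): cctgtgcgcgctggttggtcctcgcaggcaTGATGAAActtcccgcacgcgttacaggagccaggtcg

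In AARS1 the match began 187 bases before the start. In GARS1 it began at base -33, in IARS1 at -13, in MARS1 at -4 and in CARS1 at -2. In TARS1 and NARS1 it began 3 and 15 bases into the transcript, counting the start as base 1. The matched letters of AARS1, CARS1, IARS1, MARS1, NARS1 and TARS1 were TGATGCAA or its reverse complement, a form held by 0.866% of all windows and by 0 of the 22 other members. Among genes with a window, that form was held by 2.35% of those called higher at the high dose. The shares were 0.63% of those called lower and 0.61% of those tested and not called. GARS1 differed from that form by a base that the N allows. The called genes SARS1, WARS1 and EPRS1 held no match in their windows, which says only that these letters are absent there. YARS2 was the single mitochondrial gene with a match, at base -197, and at 500 µg/mL it had changed by 0.30 on the log2 scale (adjusted p 0.00338), under the fold required. ASNS, asparagine synthetase and a reference gene of the amino acid response, held the match at base -68. Its normalised counts were 1031, 1028 and 1004 in vehicle and 7288, 7527 and 7590.2 at the high dose. Of the other letters searched, TGACGTCA was present in 1.85% of windows and in AIMP2 alone among members, TGACGTAA in 0.416% and in NARS2 alone, and ATTGCATCA, which overlaps the first motif, in 0.236% and in TARS1 alone.

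**Figure D3:**
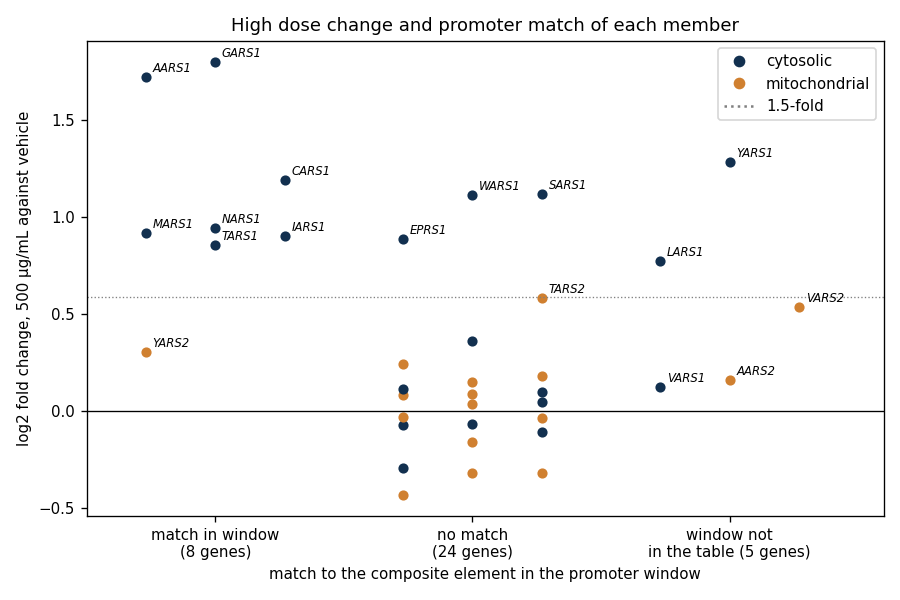
Log2 fold change at the high dose against vehicle (y axis) of each member, set apart by whether its promoter window held TGATGNAA on either strand (x axis), with cytosolic genes in dark blue and mitochondrial genes in orange. Of the 8 genes with a match, 7 lie above the dotted line of 1.5-fold and YARS2 lies below it.

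The mitochondrial enzymes moved little and in both directions. At the high dose 3 were higher by adjusted p and 4 were lower. Over all 37 members 18 were higher by adjusted p alone (background 23.9%) and 6 lower (background 22.6%). The 3 of 16 and 4 of 16 mitochondrial enzymes are shares near those backgrounds. TARS2, for threonine, had 478, 465 and 449.6 in vehicle, 503, 600.2 and 589.9 at the medium dose and 685, 668 and 733 at the high dose. Its high dose libraries lay above the vehicle libraries, and its log2 fold change of 0.58 (SE 0.084) missed the required fold of 1.5 by less than its standard error. It passed without vehicle replicate 1 (0.60), without high replicate 1 (0.60) or without high replicate 2 (0.61). VARS2, for valine, had 413, 428 and 398 in vehicle and 608, 614 and 573 at the high dose, a log2 fold change of 0.53 (SE 0.085). A same-strand gene shares 63.0% of the exon bases of VARS2, so its count is uncertain. YARS2, for tyrosine, had 326, 301 and 335 and 396, 393 and 396, and opposite-strand genes overlap 18.1% of its exon bases. Scaled by total counts, YARS2 no longer passed.

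The lower mitochondrial genes were SARS2, CARS2, LARS2 and HARS2, and 3 of them shared a shape. CARS2, for cysteine, had 2091, 2074 and 2154 in the vehicle libraries, 2230.5, 2121 and 2275 at the low dose, 2302, 2299 and 2264 at the medium dose and 1717, 1660.4 and 1676 at the high dose. It was higher than vehicle at the medium dose by 0.12 (adjusted p 0.0183) and lower at the high dose (-0.32, adjusted p 5.77e-13, DESeq2). Scaled by total counts, its medium dose value was 0.0088 and did not pass. LARS2, for leucine, had 921, 929.5 and 975 in the vehicle libraries, 869.5, 1008 and 911 at the low dose, 985, 954 and 905 at the medium dose and 733, 779 and 747 at the high dose. LARS2 did not differ detectably at the medium dose (0.01) and was lower at the high dose (-0.32, adjusted p 9.34e-06). SARS2, for serine, had 424, 445 and 437 in vehicle, 421, 441 and 422 at the medium dose and 333, 316 and 319.9 at the high dose, a log2 fold change of -0.43 (SE 0.088) that was the largest fall of the 37. A same-strand gene shares 48.2% of the exon bases of SARS2, so its count is uncertain. In all 3 genes, as in the cytosolic HARS1, the high dose libraries lay below those of every other group.

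HARS2, for histidine, had 876, 796 and 785 in vehicle and 708, 724 and 759 at the high dose, a log2 fold change of -0.16 with adjusted p 0.0382. HARS1 and HARS2 lie head to head on chromosome 5, with RefSeq starts 85 bases apart, and their promoter windows share 184 bases. Both were lower at the high dose by adjusted p. The remaining 9 mitochondrial enzymes did not pass at the high dose. Their log2 fold changes were 0.24 for PARS2 (proline), 0.18 for MARS2 (methionine), 0.16 for AARS2 (alanine), 0.15 for NARS2 (asparagine), 0.08 for RARS2 (arginine), 0.08 for FARS2 (phenylalanine), 0.03 for EARS2 (glutamate), -0.03 for IARS2 (isoleucine) and -0.04 for WARS2 (tryptophan). IARS2 had the narrowest interval of these, -0.11 to 0.04, and MARS2, with the fewest counts, the widest, -0.11 to 0.47.

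**Figure D4:**
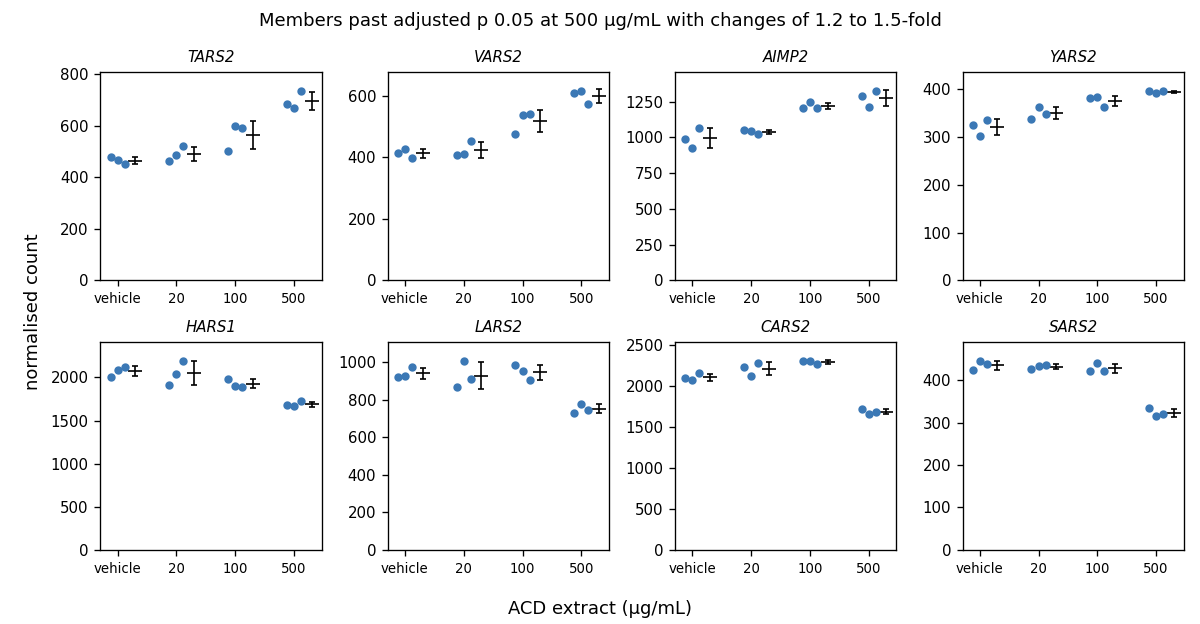
Normalised count (y axis, from 0) of the 8 members that passed the adjusted p at the high dose with a change between 1.2-fold and 1.5-fold, in each library of the vehicle and of the 20, 100 and 500 µg/mL groups (x axis), with bars for mean ± SD. In the panels of HARS1, CARS2, LARS2 and SARS2 the high dose points lie below all others.

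For 16 pairs of a cytosolic and a mitochondrial enzyme of one amino acid, the ratio of their levels per kilobase was taken within each library, which does not depend on how libraries are scaled. EPRS1 entered 2 pairs, with EARS2 and with PARS2. At the high dose the ratio lay above all vehicle libraries in 12 pairs, below all in 2 and overlapped in 2. These 12 are the pairs whose cytosolic gene was called at that dose, so their count is not separate from those calls. No such share was computed for ratios of other genes. As single genes, 5945 of 19453 tested lay wholly above vehicle at the high dose and 5812 wholly below. With 3 libraries against 3, an exact permutation test cannot give a two-sided p under 0.1, so no test was made. The alanine pair AARS1 to AARS2 stood at 9.81, 10.4 and 11.3 in the vehicle libraries and at 30.3, 33.1 and 29.7 at the high dose. Its mean ratio was 2.95 times that of vehicle. The serine pair rose 2.93 times and the cysteine pair 2.86 times, in both of which the mitochondrial enzyme was also lower. The cysteine pair crossed 1, with 0.415, 0.401 and 0.375 in vehicle and 1.11, 1.14 and 1.15 at the high dose, so that CARS1 was below CARS2 per kilobase in vehicle and above it at the high dose. The threonine pair changed least among the 12, at 1.21 times, with both enzymes higher.

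The valine pair VARS1 to VARS2 went the other way, from 7.99, 7.85 and 8.63 in vehicle to 6.02, 5.87 and 6.50 at the high dose, with the uncertain count of VARS2 in the denominator. The arginine pair was also lower in each high dose library, at 0.896 times the vehicle mean. The phenylalanine and histidine pairs overlapped. At the medium dose 12 pairs lay above vehicle, 1 below and 3 overlapped, and at the low dose 5 lay above and 11 overlapped. As single genes, 3515 of 14082 tested lay wholly above vehicle at the medium dose and 3572 wholly below. At the low dose 1313 of 9304 lay wholly above and 1082 wholly below.

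**Figure D5:**
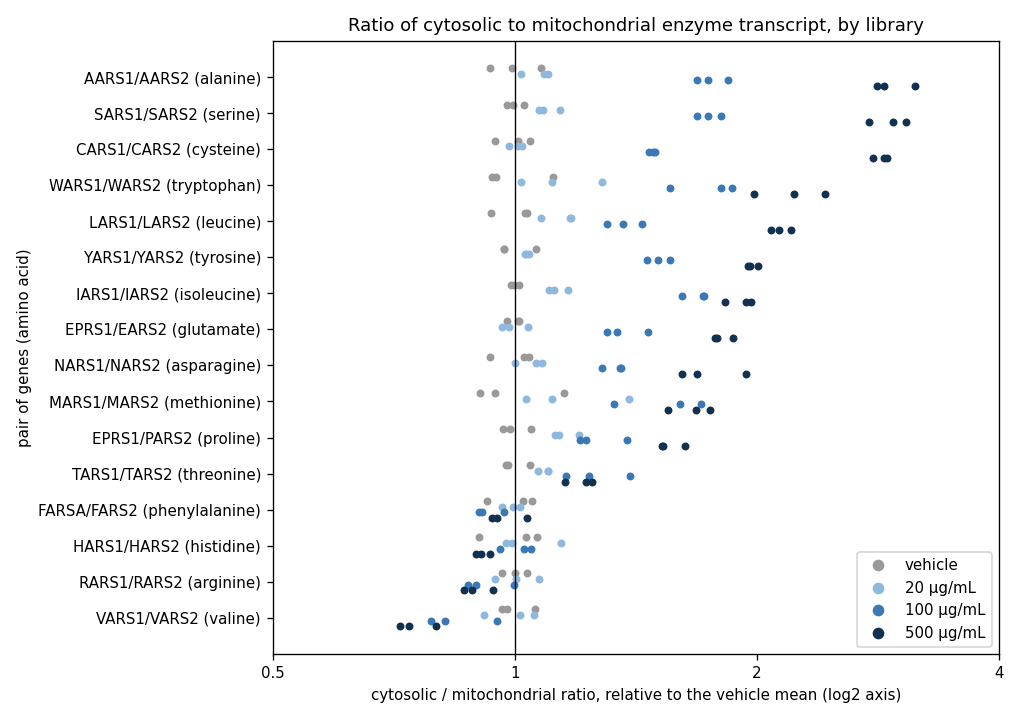
Ratio of cytosolic to mitochondrial transcript level in each library, divided by the vehicle mean of the pair (x axis, log2 scale), for 16 pairs (y axis, amino acid in brackets), with the 4 groups in grey to dark blue. The high dose points lie to the right of all vehicle points in the 12 uppermost pairs and to the left in the arginine and valine pairs.

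Genes that work beside the synthetases were read from 3 lists with 64 genes. Of the 64, 4 were called higher and 2 lower at the high dose. Over all 19453 genes tested, 8.66% were called higher, and 1862 genes were called lower. The median log2 fold change of the 64 genes was 0.00, and that of all genes tested was -0.01. Among 19 genes listed as partners of tRNA charging and delivery, 1 was called. It was SEPSECS, which makes selenocysteine on its tRNA, at 137, 117 and 117 in vehicle and 216, 232 and 248 at the high dose. Among 24 genes of tRNA maturation and export, XPOT, the export receptor of tRNA, was called higher, with 3744, 3699 and 3581 in the vehicle libraries, 4176, 4284 and 4446 at the low dose, 6608, 6901 and 7021 at the medium dose and 8938, 9097 and 9497 at the high dose. Its 4 groups did not overlap, and its log2 fold change was 1.32 (SE 0.035) at the high dose. POP1, a subunit of the nuclease that trims the 5′ end of tRNA precursors, was called lower, from 830.0, 815 and 812 in vehicle to 382, 365 and 352 at the high dose. Among 21 genes of RNA polymerase III transcription, the polymerase subunits POLR3E (0.83) and POLR3D (0.82) were called higher. POLR3D lies outside the naming rule and was named after its values were seen. The medium dose gave 2 called genes of the 64, both higher, where 2.34% of genes tested were called higher. They were XPOT (0.90) and RPP25, whose mean count of 32.5 at the high dose is under the level set for naming. RPP25 was not called under several alternatives.

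The amino acid response list, fixed from general knowledge with earlier results known, had 9 of 12 genes called higher at the high dose. Of all genes tested, 8.66% were called higher at that dose. By adjusted p alone 11 of the 12 were higher and 1 was lower, with a log2 fold change of -0.42. ATF4 had 2092, 2024 and 2059.6 in the vehicle libraries, 2543, 2584 and 2656 at the low dose, 5379.5, 5589.9 and 5744 at the medium dose and 8623, 8069.6 and 8446 at the high dose and ASNS 1031, 1028 and 1004 in the vehicle libraries, 1356, 1422 and 1329 at the low dose, 4139, 4227 and 4324 at the medium dose and 7288, 7527 and 7590.2 at the high dose. ATF4 and ASNS did not overlap between any 2 groups, and their log2 fold changes at the high dose were 2.03 and 2.87, both above the 1.80 of GARS1.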

How the data were processed

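SW1783 RNA from 4 groups of 3 libraries was sequenced by the authors, with group and replicate read from each title. Per the submitters' processing notes, reads were checked with FastQC 0.11.9, trimmed with Trim Galore 0.6.5, aligned with STAR 2.7.3a to GRCh38 and counted with RSEM 1.3.3. The authors deposited expected counts per gene, of which 8.75% of values were not whole because RSEM shares reads among genes. They were rounded here. The strand setting of RSEM is not given in the sources used here. The treatment protocol in the labels describes another herb than the titles, and the titles were followed. Symbols came from GENCODE 44, which matched 93.2% of identifiers carrying 99.9% of counts. Of the columns, 0 were left without a sample. Total counts were 18863863 to 24200576, and replicates differed by more than counting noise (chi-square per degree of freedom 2.06 to 3.77), so all 12 were kept.

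DESeq2 1.42.0 (R 4.3.3) was fitted with its two-sided Wald test on all 12 libraries and all 30808 genes with a count, with group as the sole term and p-values adjusted over the whole table (Benjamini-Hochberg, independent filtering at 0.05). Called genes had an adjusted p under 0.05 and a fold over 1.5. A likelihood ratio test compared the 4 groups. The edgeR 4.0.16 quasi-likelihood test, other scalings, filters, call rules, a replicate block and the removal of each library were alternatives. The fitting step was tested on simulated data. Every member was named, with values per library for called genes and for those changing direction. Partner genes were named as the largest called rise and fall with a mean count of at least 100 in each list, with ATF4 and ASNS as references. A partner gene that met this rule is not reported here. Members and lists were chosen with earlier results of these data known. Same-numbered libraries correlated in their deviations at 0.124 to 0.193 for the low and medium dose in all 3 pairs. So the numbers were taken as pairing those groups, and not with vehicle (-0.118 to -0.00687). The range was 0.0355 to 0.221 for the medium and high dose and -0.0191 to 0.135 for the low and high dose. The main fit did not use the pairing, and the replicate block covered all 12 libraries, vehicle included. Promoter windows came from RefSeq on GRCh38.p14, and the sequences were searched after the results were known.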

Additional observations from a re-analysis of the deposited data

Results flagged for a closer look

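For 2 mitochondrial synthetase genes the change against vehicle had opposite signs at the medium and the high dose, and the doses differed in the test. CARS2 was above vehicle at the medium dose (0.12) and below it at the high dose (-0.32), and the test of the high dose against the medium dose gave a log2 fold change of -0.44 with an adjusted p of 1.75e-23 in DESeq2. LARS2 was at 0.01 at the medium dose, which did not pass, and at -0.32 at the high dose, and its high dose against medium dose log2 fold change was -0.33 with an adjusted p of 7.43e-06. With scaling by total counts LARS2 was at -0.10 and CARS2 at 0.0088 at the medium dose, neither passing, while the high dose against medium dose values were -0.33 and -0.45. In both genes all 3 high dose libraries lay below all 3 medium dose libraries.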

How the results depend on the processing

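Under 24 alternative settings, 4368 of 4440 values of the members kept their side of the call, 12 lost the call, 60 gained it and 0 called values reversed, while 79 uncalled values changed sign. Most gains came from dropping the fold threshold, which gave 24, 19 and 9 members against vehicle from the high to the low dose, 18 for high against medium and 15 for medium against low. For medium against low (6 called), a test against the fold threshold gave 2 and scaling by total counts gave 3. That scaling gave 6 in place of 9 at the medium dose, where it moved the median of all genes by -0.11, and turned VARS1 at that dose from 0.09 to -0.02. In the partner lists, dropping the fold threshold gave 36, 18 and 2 in the same order. Their medium dose count of 2 fell to 1 without independent filtering, with the test against the threshold, with total counts, with the 2 groups alone and without each library in turn (1 in every case), where RPP25 was lost. Leaving out one library gave 12 to 13 members at the high dose and 6 to 7 for medium against low. The cause was not tested. With the replicate number as a block the partner count at the medium dose was 1, and the block changed 0 of 185 calls of members, among them the paired comparison of medium with low. The count level limited FARS2, MARS2, PARS2 and WARS2, whose low dose values carry no adjusted p.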
